A study of Homo sapiens with 8 samples.

Results

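Integrins and laminins are the receptors and ligands by which cells hold on to basement membranes and other matrix. Their subunit genes were taken from the array by name alone: every gene name that began with ITGA, ITGB or LAM and went on with the number or letter of a subunit, which gave 38 of the 43317 gene names (18 alpha integrin, 8 beta integrin and 12 laminin subunit genes). The question was at which level each subunit was seen in untransfected cells of 5 human cancer cell lines, and how its level differed after transfection of a small RNA. There were 8 two-colour Agilent 60K arrays of total RNA. In every case untransfected (mock) cells were in the green Cy3 channel and cells transfected with Lipofectamine RNAiMAX were in the red Cy5 channel. PC3, a prostate cancer line, received si-PIR-2 on 1 array and si-PIR-3 on another, 2 siRNAs against PIR, the gene of the nuclear cupin protein pirin. SK-MES-1, a lung squamous cell carcinoma line, received miR-144-5p or miR-144-3p (1 array each), and miR-204-5p was given to SW1990, a pancreatic cancer line, and to MDA-MB-231, a breast cancer line (1 array each). PANC1, a second pancreatic cancer line, received miR-130-5p or miR-130-3p (1 array each).

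No dyes were swapped, so a dye effect and a transfection effect cannot be told apart on any array, nor can an effect of the transfection reagent and one of the RNA, since mock cells were not transfected. The names of the deposited scanner outputs give both arrays of PC3, of SK-MES-1 and of PANC1 the same mock sample, so each line is counted as 1 mock RNA. All 8 arrays lay on 1 slide and in 1 scan. Between 43.7% and 48.6% of the spots were well above background in the mock channel and 51.8% to 56.5% in the transfected channel, and no spot was saturated. PIR checked the siRNA labels: its log2 ratio of transfected over mock was -5.46 with si-PIR-2 and -4.27 with si-PIR-3, and it lay at -0.14, 0.01, -0.24, -0.13, -1.60 and 0.05 on the 6 miRNA arrays in the order above. Of 5 epithelial markers, 4 or 5 were well above background in mock cells of every line, and CDH1 was not in SK-MES-1 or PANC1. Of 4 mesenchymal markers, 3 were well above background in PANC1 and 4 in each other line, so these lists do not show the lines as epithelial alone. PC3 had 3 of 4 prostate markers (not KLK3) where the other lines had 1 or 2, SK-MES-1 had 3 of 4 squamous markers (not KRT5), as had SW1990 (not TP63), MDA-MB-231, PC3, SK-MES-1 and PANC1 had the same 2 of 3 luminal breast markers (not PGR), and all 5 lines had 3 of 4 pancreatic duct markers (not PDX1), so the breast list did not set MDA-MB-231 apart, nor the duct list the pancreatic lines. Markers of other cell types were also above background, with 2 or 3 of 4 for leukocytes (PTPRC and CD14 in every line), 1 or 2 of 3 for platelets, 1 to 3 of 3 for endothelium and 1 to 3 of 4 for fibroblasts (DCN in none), and their part in the results was not tested.

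An integrin is a pair of 1 alpha and 1 beta subunit that spans the cell membrane, with the ligand bound outside and talin and kindlin bound inside. A laminin is a cross-shaped trimer of 1 alpha, 1 beta and 1 gamma chain that the cell secretes into the basement membrane. In epithelia LAMA3 and LAMB3 are chains of the main anchoring laminin, and the integrin of ITGA6 and ITGB4 binds it at the hemidesmosome, while ITGA3 with ITGB1 binds it at focal contacts. Carcinoma cells are known to make many of these chains.

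Sequences are given for 3 of the transfected miRNAs that matched a mature miRNA of RefSeq by name (human, GRCh38.p14). They are printed because the seed, bases 2 to 8 and here in capitals, sets which messages a miRNA can pair with, and the arms of miR-144 do not share one. The name miR-130 does not say which family member was used, so no sequence is given for it.
miR-144-5p: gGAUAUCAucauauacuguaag
miR-144-3p: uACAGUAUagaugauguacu
miR-204-5p: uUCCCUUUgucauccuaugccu
The miR-144 arms lie at chr17:28861583-28861604 (5p) and chr17:28861548-28861567 (3p), and miR-204-5p lies at chr9:70810031-70810052, each on the minus strand.

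A ratio below is the scanner software's log ratio of transfected over mock, turned to log2, where 1 is a fold of 2 up and -1 the same fold down. It was read only where at least 1 channel was well above background, on the brightest probe of a gene. Where a line has 2 values, the first is for si-PIR-2 in PC3 and for the 5p arm in SK-MES-1 and PANC1, and the second for si-PIR-3 or the 3p arm, while SW1990 and MDA-MB-231 have 1 value each, for miR-204-5p. With 8 arrays and 38 members there were 304 values, of which 244 were read, 210 with both channels well above background and 34 with 1. On all 8 arrays 26 members were read, 21 of them with both channels well above background throughout, and 8 further members were read on some arrays. ITGA8, an RGD-binding alpha subunit, ITGAD and ITGAL, leukocyte alpha subunits, and LAMB4 were read on none. All 38 gene names are symbols in the RefSeq table, and 15 members have more than 1 probe.

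Many members differed widely in mock level between the lines, above all LAMA3, LAMB3 and ITGB4, which were low in PANC1. A mock level is the log2 processed Cy3 signal less the 75th percentile of its array, it is compared only within a gene, and there is no test, since each line has 1 mock RNA. In bulk RNA, fewer cells with a transcript and less of it per cell cannot be told apart. Of the 31 members well above background in at least 1 line, 23 (74.2%) had a range of 2 or more between the highest and lowest line, against 27.9% of the 24781 genes that could be compared in the same way. The median range was 2.75 for the members and 1.32 for all genes. With normexp (offset 50) on the mock signal, which draws dim signals together, 11 members had a range of 2 or more. The share of all genes was not counted under that setting, so the members cannot be set against it there. Between the 2 arrays of the same mock RNA the members differed by a median of 0.07 in PC3, 0.05 in SK-MES-1 and 0.07 in PANC1, counting only lines in which a member was well above background. For 22 of the 23 members the range was at least 6.3 times the largest such difference, and ITGB6 had none, since it was well above background only in SW1990, which has 1 array.

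**Figure D1:**
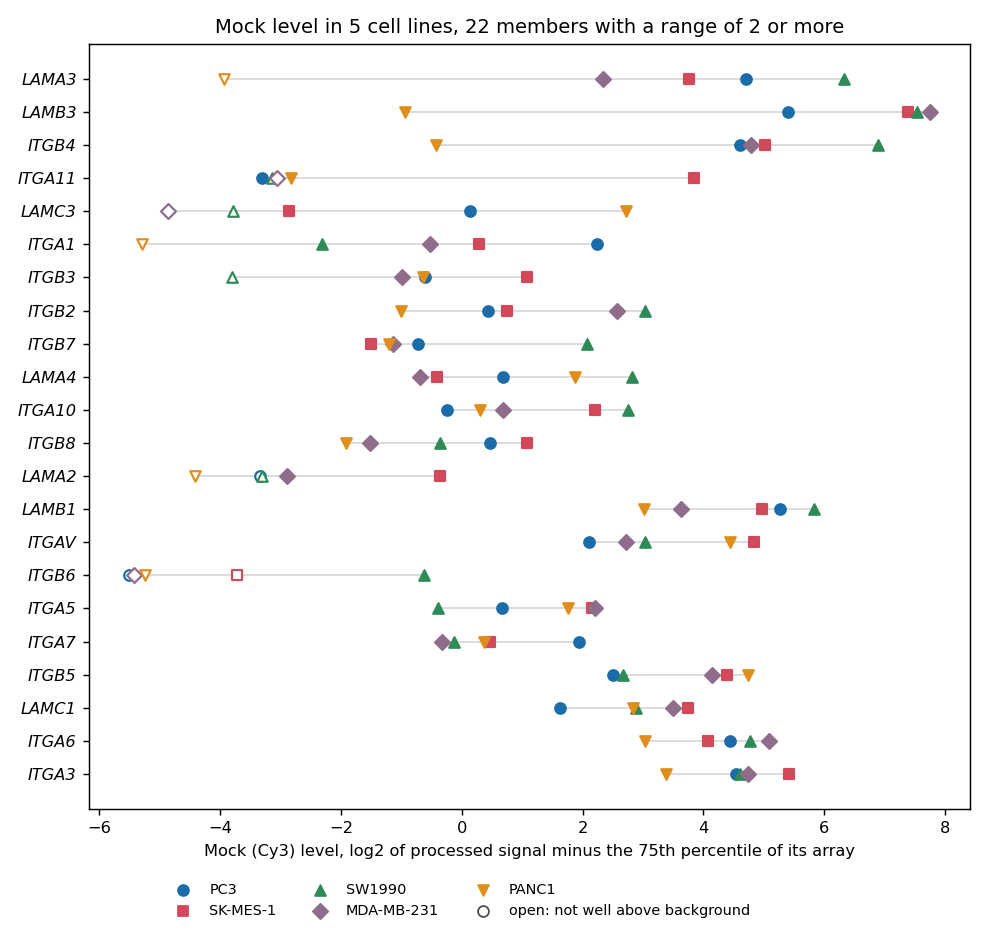
Mock level of 22 of the 23 members with a range of 2 or more, ordered by range (x axis: log2 of the processed Cy3 signal minus the 75th percentile of the array, arrays of 1 line averaged; y axis: gene; 1 symbol per cell line, open for a line whose arrays all had a dim signal). PANC1 lies apart and low for LAMA3, LAMB3 and ITGB4, and SK-MES-1 lies apart and high for ITGA11.

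LAMA3, LAMB3 and ITGB4 had the 3 widest ranges of the members. LAMB3, the beta chain, had mock levels of 5.40 in PC3, 7.39 in SK-MES-1, 7.53 in SW1990, 7.76 in MDA-MB-231 and -0.94 in PANC1, so PC3, the next line up, was 81-fold above PANC1 and MDA-MB-231 was 416-fold above it. LAMA3, the alpha chain, had levels of 4.70 in PC3, 3.77 in SK-MES-1, 6.33 in SW1990, 2.33 in MDA-MB-231 and -3.93 in PANC1 (dim), where dim means not well above background, and SW1990 was at least 666-fold above PANC1 and 15.9-fold above MDA-MB-231. All 4 other lines were thus far above PANC1 for both chains on these probes. The order of the other lines rests on the brightest LAMA3 probe, since the second had its highest mock signals in PC3 (158 and 167) and had 32.3 in SW1990 and 33.3 in MDA-MB-231, with a dim signal in PANC1. ITGB4 was at 4.60 in PC3, 5.03 in SK-MES-1, 6.88 in SW1990, 4.79 in MDA-MB-231 and -0.42 in PANC1. It was 158-fold higher in SW1990 than in PANC1 and 32.4-fold higher in PC3 than in PANC1, while SK-MES-1 and MDA-MB-231, and MDA-MB-231 and PC3, were no further apart than repeat arrays of 1 line. The partner ITGA6 ranged far less, with levels of 4.44 in PC3, 4.07 in SK-MES-1, 4.77 in SW1990, 5.09 in MDA-MB-231 and 3.03 in PANC1, as did ITGA3, with 4.54 in PC3, 5.42 in SK-MES-1, 4.61 in SW1990, 4.74 in MDA-MB-231 and 3.38 in PANC1. In PANC1 all of these were at their lowest. There the mock signals were 42.8 and 41.5 for LAMB3 and 54.9 and 46.6 for ITGB4, over a local background of 20. Folds against PANC1 thus rest on values near the background.

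PANC1 had the lowest mock level for 11 of the 21 members that were well above background in all 5 lines (52.4%), against 18.5% of the 16108 genes of the same kind. Among them were ITGA3, ITGA6, ITGB1, ITGB2, ITGB4, ITGB8, LAMA5, LAMB1, LAMB2 and LAMB3. For ITGB8, PANC1 and MDA-MB-231 were not apart beyond the repeat arrays, so its lowest line is not settled. PANC1 had the highest level for 1 of the 21, ITGB5, against 21.9% of genes. SW1990 had the highest level for 7 of the 21 (33.3%, against 23.5% of genes), among them ITGB4 and LAMB1. SK-MES-1 was highest for 5 (23.8%, against 13.7% of genes), MDA-MB-231 for 5 (23.8%, against 22.3%) and PC3 for 3 (14.3%, against 18.5%). The lowest level lay in SK-MES-1 for 1 of the 21 (4.76%, against 33.2% of genes).

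Start sites of 26 members, with 33 promoters in all, were in the RefSeq promoter table (GRCh38.p14, 250 bases before to 50 after each start). The AP-1 type motifs TGACTCA and TGAGTCA, which are each the other's reverse complement and so cover both strands, were searched because LAMA3 and LAMB3 had the widest mock ranges and the choice was made after those values were seen. Either was found in 3 of the 33 promoters, those of LAMA3, ITGA5 and 1 of the 3 start sites of LAMB3, and in 4.95% of all 35116 promoters. The 250 bases before the start are shown for LAMA3 and LAMB3, with the matches in capitals.
LAMA3, chr18:23872770-23873019, plus strand: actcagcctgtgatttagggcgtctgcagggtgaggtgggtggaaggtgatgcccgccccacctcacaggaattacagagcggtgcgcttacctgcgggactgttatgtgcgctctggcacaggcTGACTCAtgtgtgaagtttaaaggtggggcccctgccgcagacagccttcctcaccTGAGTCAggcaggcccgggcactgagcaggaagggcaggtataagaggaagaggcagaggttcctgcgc
LAMB3, chr1:209651375-209651624, minus strand: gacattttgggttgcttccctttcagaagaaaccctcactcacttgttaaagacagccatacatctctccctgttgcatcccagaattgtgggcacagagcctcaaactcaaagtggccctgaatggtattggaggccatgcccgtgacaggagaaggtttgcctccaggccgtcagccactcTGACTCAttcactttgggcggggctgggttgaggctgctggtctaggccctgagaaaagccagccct
LAMA3 held a match 125 bases and another 69 bases before its start, LAMB3 held 1 at 67 bases, and the match of ITGA5 crossed its start. A match of letters is a description of the window, and binding was not measured.

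Among the other laminin chains, LAMC3 had mock levels of 0.13 in PC3, -2.86 in SK-MES-1, -3.79 in SW1990 (dim), -4.87 in MDA-MB-231 (dim) and 2.72 in PANC1, so PANC1 was 6-fold above PC3. In SK-MES-1 it was well above background on 1 of 2 arrays, and no fold is given. PANC1 was thus highest for LAMC3 and lowest for LAMB3. LAMA4, an alpha chain of vascular basement membrane, showed 0.68 in PC3, -0.42 in SK-MES-1, 2.82 in SW1990, -0.68 in MDA-MB-231 and 1.87 in PANC1. This order rests on its brightest probe, since on 2 others SK-MES-1 had higher mock signals than PANC1 (75.2 and 81.4 against 51.1 and 45.6 on one of them). LAMA2, the alpha chain of muscle laminin, was at -3.34 in PC3 (dim), -0.36 in SK-MES-1, -3.31 in SW1990 (dim), -2.90 in MDA-MB-231 and -4.41 in PANC1 (dim), and SK-MES-1 was 5.78-fold above MDA-MB-231. LAMB1 and LAMC1 are the beta and gamma chains shared by many laminins. LAMB1 had 5.27 in PC3, 4.97 in SK-MES-1, 5.83 in SW1990, 3.63 in MDA-MB-231 and 3.02 in PANC1, and LAMC1 had 1.62 in PC3, 3.74 in SK-MES-1, 2.88 in SW1990, 3.50 in MDA-MB-231 and 2.84 in PANC1, with SW1990 and PANC1 not apart beyond the repeat arrays. LAMA5 and LAMB2 had ranges below 2 (0.56 and 1.57), and LAMA1 was not well above background in mock cells of any line. The LAMA5 range is that of its brightest probe, and the other probe had mock signals of 449 in SW1990 and 155 and 149 in PANC1.

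Collagen-binding alpha subunits, which pair with ITGB1, differed by line in different ways. ITGA11 was at -3.31 in PC3, 3.84 in SK-MES-1, -3.15 in SW1990 (dim), -3.06 in MDA-MB-231 (dim) and -2.83 in PANC1, which put SK-MES-1 at least 126-fold above SW1990 and at least 119-fold above MDA-MB-231. In PC3 and PANC1 it was well above background on 1 of 2 arrays each, and no fold is given. ITGA1 had levels of 2.24 in PC3, 0.29 in SK-MES-1, -2.31 in SW1990, -0.53 in MDA-MB-231 and -5.30 in PANC1 (dim), and PC3 was 3.85-fold above SK-MES-1 and at least 39-fold above PANC1. ITGA10 showed -0.25 in PC3, 2.20 in SK-MES-1, 2.76 in SW1990, 0.68 in MDA-MB-231 and 0.31 in PANC1. Thus these 3 were each highest in another line. ITGA2 had a range of 1.94. ITGB1 itself, the shared beta subunit, had a range of 0.72.

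ITGAV pairs with several beta subunits to bind RGD ligands such as vitronectin and latent TGF-beta. ITGAV was at 2.10 in PC3, 4.84 in SK-MES-1, 3.03 in SW1990, 2.71 in MDA-MB-231 and 4.44 in PANC1, and its partner ITGB5 at 2.498 in PC3, 4.38 in SK-MES-1, 2.67 in SW1990, 4.15 in MDA-MB-231 and 4.74 in PANC1, so both were lower in PC3, SW1990 and MDA-MB-231 than in PANC1. ITGB3 had -0.61 in PC3, 1.08 in SK-MES-1, -3.80 in SW1990 (dim), -0.99 in MDA-MB-231 and -0.64 in PANC1. ITGB8 had 0.47 in PC3, 1.08 in SK-MES-1, -0.35 in SW1990, -1.52 in MDA-MB-231 and -1.91 in PANC1, with MDA-MB-231 and PANC1 not apart beyond the repeat arrays. SK-MES-1 was highest for both of these beta subunits. ITGB6, an epithelial partner of ITGAV, was well above background in SW1990 alone, at -0.62, at least 5.37-fold above each of the other lines. ITGA5, which with ITGB1 forms the fibronectin receptor, had 0.68 in PC3, 2.15 in SK-MES-1, -0.39 in SW1990, 2.20 in MDA-MB-231 and 1.75 in PANC1, where MDA-MB-231 and SK-MES-1 were not apart beyond the repeat arrays.

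Subunits known from leukocytes and platelets were mostly dim. On the brightest probe, ITGA4, ITGAD, ITGAL and ITGAX were not well above background in mock cells of any line, though a second ITGAX probe was in SK-MES-1, with mock signals of 28.3 and 28.2, and the mock signals of ITGA2B, the platelet alpha subunit, and ITGAM were at most 30.7 over local backgrounds of 19 to 22. ITGB2, the leukocyte beta subunit, was brighter, with levels of 0.44 in PC3, 0.74 in SK-MES-1, 3.03 in SW1990, 2.57 in MDA-MB-231 and -1.01 in PANC1. ITGB7, whose pair with ITGAE binds E-cadherin, was at -0.73 in PC3, -1.51 in SK-MES-1, 2.07 in SW1990, -1.14 in MDA-MB-231 and -1.21 in PANC1, so SW1990 was 6.96-fold above PC3, the next line. ITGA7, a laminin-binding subunit known from muscle, had 1.94 in PC3, 0.48 in SK-MES-1, -0.13 in SW1990, -0.33 in MDA-MB-231 and 0.37 in PANC1. ITGAE had a range of 1.86 and ITGA9 one of 0.84.

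After transfection, 27 of the 244 values read were 1 or higher or -1 or lower, on 15 of the 38 members, 15 higher and 12 lower. That is 11.1% of the values, where 7.53% of the 185728 values read over all genes were past 1. In 16 of the 27 both channels were well above background, and these were 5 higher and 11 lower. In the other 11 a channel was dim, with a mean signal of at most 26.9. For those 11 a lower bound of the fold was taken after normexp background correction (offset 50), loess and scaling between arrays. It was set against the dim channel's own value or the dimmest value still above background, whichever was higher. These bounds were only 1.01 to 1.12-fold, so no size is read from the 11. Their ratios by normexp and loess were at most 0.17 in size, which is not separate support, since the bounds use the same values. By normexp and loess as a second measure, 6 of the 27 values stayed past 1. The 2 measures differed by a median of 0.02 and at most 0.16 on the 96 values with a mock signal of 300 or more, and by a median of 0.35 and up to 2.30 on the 72 with a mock signal under 50. An offset of 50 shrinks ratios of dim signals by arithmetic, so a wider gap there was fixed in advance.

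**Figure D2:**
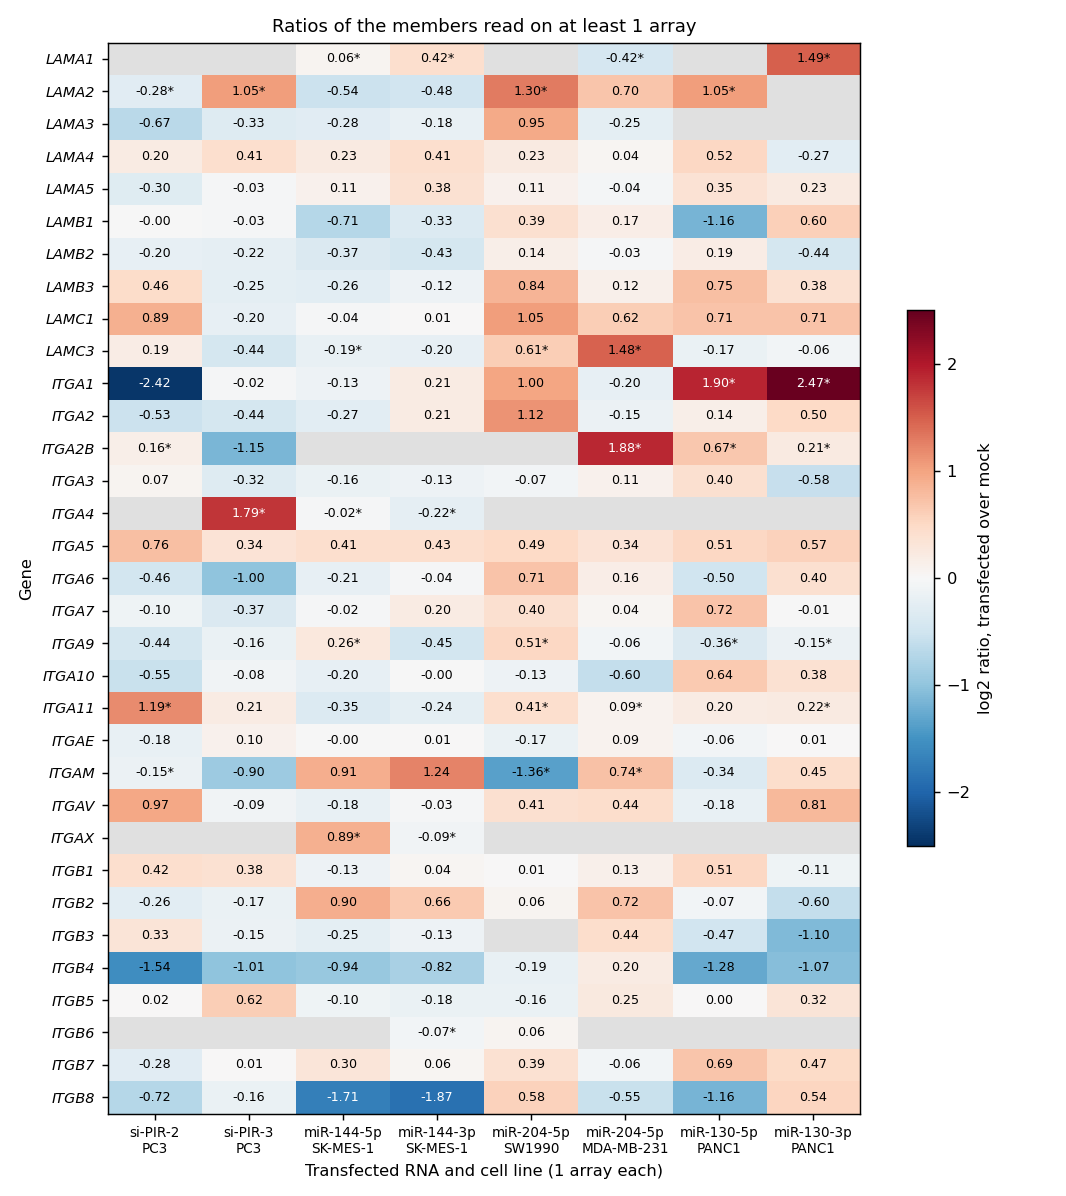
Log2 ratio of transfected over mock on each array (columns, 1 array each) for 33 of the 34 members read on at least 1 array (rows), printed in each cell and coloured from blue (lower) to red (higher). An asterisk marks a ratio with 1 channel not well above background and grey marks no reading. ITGA5 is above 0 in all 8 columns and ITGB4 is below -0.8 in 6 of them.

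There were 2 members higher in the transfected channel on all 8 arrays with both channels well above background throughout, ITGA5 among them, and none of the 21 that could be judged was lower on all 8. Of all 15479 genes judged the same way, 4.74% were higher and 3.52% lower on all 8. After normexp with median centring, which moved the median of all genes up by 0.23 to 0.50, 15 members were higher on all 8. For that setting the share of all genes was not counted, so the 15 are not read as a result about the members. ITGA5 read 0.76 and 0.34 in PC3, 0.41 and 0.43 in SK-MES-1, 0.49 in SW1990, 0.34 in MDA-MB-231 and 0.51 and 0.57 in PANC1. Its lowest value was 0.34 and its highest 0.76.

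In PC3 cells given si-PIR, ITGB4 was the 1 member of 30 read on both arrays that was -1 or lower on both, and none was 1 or higher on both. The background was 0.397% of 22435 genes lower and 0.700% higher. ITGB4 read -1.54 and -1.01 in PC3, -0.94 and -0.82 in SK-MES-1, -0.19 in SW1990, 0.20 in MDA-MB-231 and -1.28 and -1.07 in PANC1. Both PC3 values, both SK-MES-1 values and both PANC1 values were below -0.8, whereas the miR-204-5p arrays lay near 0. On the PC3 arrays the fold was 2.91 and 2.01 lower, with mock signals of 1133 and 1059 over a local background of 20 and 22. By normexp and loess they were -1.41 and -0.94, so that no member was past 1 on both arrays by that measure. By limma over the 2 arrays the mean was -1.28 (SE 0.20, 95% confidence interval -1.81 to -0.74, n = 2 arrays), with an unadjusted p of 0.0022 and a Benjamini-Hochberg adjusted p of 0.26. Limma called 0 of 22435 genes at 0.05 (0% of them) in this comparison, with 3358 at an unadjusted p under 0.05 and a smallest adjusted p of 0.24. So ITGB4 was lower with both siRNAs without passing the adjusted threshold. The fit pooled its spread over these 2 arrays and the 2 of miR-204-5p, so the SE holds differences between siRNAs and between lines but none between separate mock cultures of a line. With the si-PIR arrays fitted alone, the smallest adjusted p of a member by limma was 0.44. After normexp with median centring ITGB4 passed the threshold at a mean of -0.42 (limma adjusted p = 0.028), in a fit that called 10053 genes. The median of the members was -0.13, against 0.03 for all genes.

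The laminin-binding partner ITGA6 read -0.46 and -0.999 in PC3, -0.21 and -0.04 in SK-MES-1, 0.71 in SW1990, 0.16 in MDA-MB-231 and -0.50 and 0.40 in PANC1. It was just short of -1 with si-PIR-3. Its limma mean in PC3 was -0.73 (SE 0.22, adjusted p = 0.30). Its second probe gave values within 0.39 of these on every array. ITGA5 and ITGB1, which form the fibronectin receptor, had limma means of 0.55 (SE 0.16, adjusted p = 0.30) and 0.40 (SE 0.13, adjusted p = 0.31) with si-PIR. ITGB1 was printed on 10 spots and read 0.42 (SD 0.04 over spots) and 0.38 (SD 0.02). ITGAV, also on 10 spots, read 0.97 (SD 0.04) with si-PIR-2 and -0.09 (SD 0.08) with si-PIR-3, so the siRNAs differed there by far more than the spots of 1 array. Each on 1 spot, ITGA1 was at -2.42 ± 0.30 (error of the scanner software) with si-PIR-2 and -0.02 ± 0.20 with si-PIR-3, and LAMC1 at 0.89 and -0.20. With 1 array for each siRNA these differences have no replicate.

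**Figure D3:**
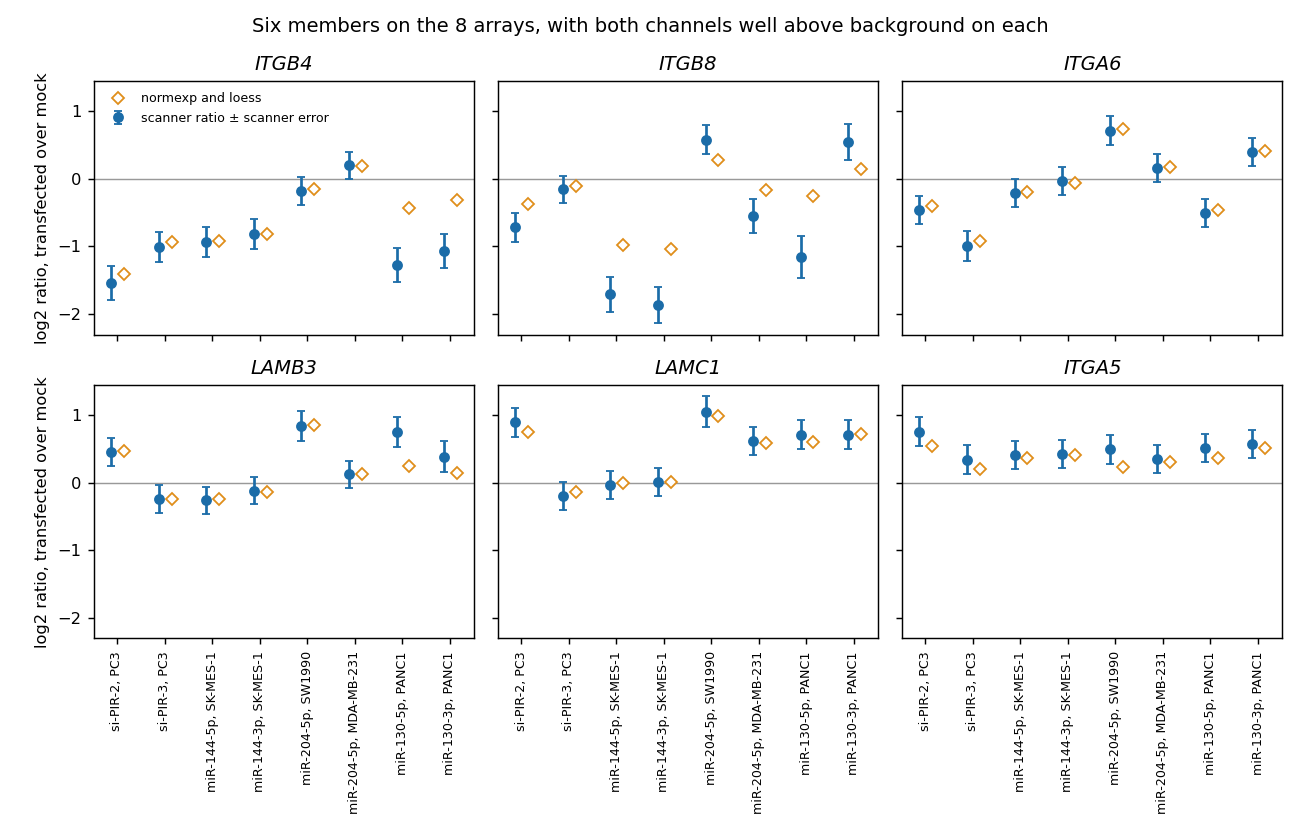
Log2 ratio of transfected over mock (y axis) on each of the 8 arrays (x axis) for 6 members with both channels well above background throughout. Filled circles are scanner ratios with the scanner software's error as the bar and open diamonds are ratios after normexp background correction and loess. For ITGB4 in PANC1 the 2 measures part, at -1.28 against -0.43 and -1.07 against -0.31, and for LAMC1 and ITGA6 they lie close together.

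In SK-MES-1 cells, ITGB8, a beta subunit that with ITGAV binds latent TGF-beta, was lower with both arms of miR-144. ITGB8 read -0.72 and -0.16 in PC3, -1.71 and -1.87 in SK-MES-1, 0.58 in SW1990, -0.55 in MDA-MB-231 and -1.16 and 0.54 in PANC1. With miR-144-5p it was 3.27-fold and with miR-144-3p 3.65-fold lower by the scanner ratio, from mock signals of 133 and 129. By normexp and loess the ratios were -0.98 and -1.04. ITGB8 was the 1 member of 32 read that was -1 or lower with miR-144-5p, where 1.96% of 23928 genes were, and none was 1 or higher, where 4.12% were. With miR-144-3p it was the 1 of 33, where 1.12% of 24256 genes were -1 or lower. The 2 arrays shared their mock RNA, the seeds printed above differ, and the cause of the lower ratios was not tested.

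Higher with miR-144-3p by 1 or more were 2 of 33 members, ITGAM among them, against 4.46% of genes. ITGAM, a leukocyte alpha subunit, read -0.15 and -0.90 in PC3, 0.91 and 1.24 in SK-MES-1, -1.36 in SW1990, 0.74 in MDA-MB-231 and -0.34 and 0.45 in PANC1. Its signals never passed 50 in either channel, and its ratio with miR-144-3p was 0.25 by normexp and loess. ITGB4 was at -0.94 ± 0.22 and -0.82 ± 0.22 with the 2 arms, and ITGB2 at 0.90 and 0.66. So ITGB2 lay above 0 and ITGB4 and ITGB8 below 0 with either arm. The medians of the members were -0.13 (5p) and -0.04 (3p), against 0.04 and 0.02 for all genes.

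With miR-204-5p no member was past 1 in the same direction in both lines, of 28 read in both, where 0.582% of 20462 genes were 1 or higher and 0.606% -1 or lower on both arrays. Limma called 0 of 20462 genes (0% of them), with 3091 at an unadjusted p under 0.05 and a smallest adjusted p of 0.11, and no member had an adjusted p below 0.24. In SW1990 alone, LAMC1 was at 1.05 ± 0.23 and ITGA2 at 1.12 ± 0.24, with LAMA3 at 0.95 and LAMB3 at 0.84 just short of 1. The second LAMA3 probe went the other way in SW1990, at -0.41 from a mock signal of 32.3. In MDA-MB-231 LAMA3 was at -0.25 and LAMB3 at 0.12. LAMC1 read 0.89 and -0.20 in PC3, -0.04 and 0.01 in SK-MES-1, 1.05 in SW1990, 0.62 in MDA-MB-231 and 0.71 and 0.71 in PANC1. It was higher in both lines given miR-204-5p, with a limma mean of 0.83 (SE 0.30, adjusted p = 0.32). ITGA2, a collagen receptor subunit, read -0.53 and -0.44 in PC3, -0.27 and 0.21 in SK-MES-1, 1.12 in SW1990, -0.15 in MDA-MB-231 and 0.14 and 0.50 in PANC1, and by normexp and loess its SW1990 value, from a mock signal of 39.2, was 0.47. The median of the members over both arrays was 0.24, against 0.05 for all genes.

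In PANC1 cells given miR-130-5p, 3 of 29 members were -1 or lower (ITGB4, ITGB8 and LAMB1, all with both channels well above background), where 6.23% of 22387 genes were. The 2 members at 1 or higher, ITGA1 and LAMA2, had a dim mock channel, and 7.59% of genes were that high. LAMB1 read 0.00 and -0.03 in PC3, -0.71 and -0.33 in SK-MES-1, 0.39 in SW1990, 0.17 in MDA-MB-231 and -1.16 and 0.60 in PANC1. Its fold with miR-130-5p was 2.24 lower from a mock signal of 398, it was -1.004 by normexp and loess, and with miR-130-3p it was 0.60 against the same mock RNA. A second probe of LAMB1, with a mock signal of 32.2 and both channels well above background, read 1.08 with miR-130-5p, and another, with a mock signal of 21.4 and a dim channel, read 2.11. The probes of this gene thus oppose each other there, and the mean of all 3, the dim one included, was 0.68. ITGB8 was at -1.16 with miR-130-5p and 0.54 with miR-130-3p, with mock signals of 36 and 33, and by normexp and loess at -0.25 and 0.14. So on their brightest probes LAMB1 and ITGB8 were lower with miR-130-5p and higher with miR-130-3p. For LAMB1 the lower value held on that probe alone.

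With miR-130-3p, 2 of 29 members were -1 or lower, ITGB4 and ITGB3, where 1.92% of 23114 genes were, and the 2 at 1 or higher, ITGA1 and LAMA1, again had a dim mock channel, where 6.42% of genes were that high. ITGB3, which pairs with ITGAV and with ITGA2B, had 0.33 and -0.15 in PC3, -0.25 and -0.13 in SK-MES-1, no reading in SW1990, 0.44 in MDA-MB-231 and -0.47 and -1.10 in PANC1. Its value with miR-130-3p came from a mock signal of 49.3 and was -0.34 by normexp and loess. ITGB4 in PANC1 came from mock signals of 54.9 and 46.6 over a background of 20, and the normexp and loess ratios of -0.43 and -0.31 had the same sign and were closer to 0 than the scanner ratios. Brighter members were steadier between measures. LAMC1 was at 0.71 and 0.71 with the miR-130 arms and ITGAV at -0.18 and 0.81. The medians of the members were 0.20 (5p) and 0.32 (3p), against 0.09 and 0.03 for all genes.

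Members past 1 only on dim channels or in single arrays complete the list. ITGA1 read -2.42 and -0.02 in PC3, -0.13 and 0.21 in SK-MES-1, 0.996 in SW1990, -0.20 in MDA-MB-231 and 1.90 and 2.47 in PANC1, where both PANC1 values had a dim mock channel and bounds of 1.02 and 1.12-fold higher. LAMA2 had -0.28 and 1.05 in PC3, -0.54 and -0.48 in SK-MES-1, 1.30 in SW1990, 0.70 in MDA-MB-231 and 1.05 and no reading in PANC1. LAMA1, a chain known from the embryo, had no reading in PC3, 0.06 and 0.42 in SK-MES-1, no reading in SW1990, -0.42 in MDA-MB-231 and no reading and 1.49 in PANC1. LAMC3 read 0.19 and -0.44 in PC3, -0.19 and -0.20 in SK-MES-1, 0.61 in SW1990, 1.48 in MDA-MB-231 and -0.17 and -0.06 in PANC1. ITGA11 read 1.19 and 0.21 in PC3, -0.35 and -0.24 in SK-MES-1, 0.41 in SW1990, 0.09 in MDA-MB-231 and 0.20 and 0.22 in PANC1. None of the values past 1 of these 4 genes had both channels well above background. ITGA4 had no reading and 1.79 in PC3, -0.02 and -0.22 in SK-MES-1, no reading in SW1990, no reading in MDA-MB-231 and no reading in PANC1. ITGA2B had 0.16 and -1.15 in PC3, no reading in SK-MES-1, no reading in SW1990, 1.88 in MDA-MB-231 and 0.67 and 0.21 in PANC1, and its -1.15 with si-PIR-3 had both channels well above background at signals of 30.1 and 24.3. On their brightest probes, the 19 members read that were never past 1 lay between -0.999 and 0.97 on the arrays on which they were read.

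**Figure D4:**
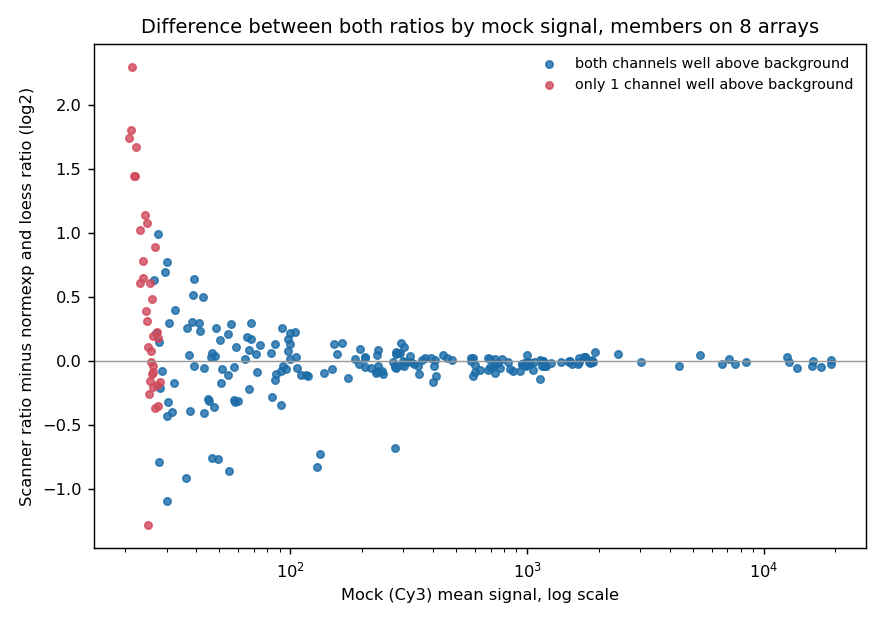
Scanner ratio minus the ratio after normexp and loess (y axis, log2) against the mock mean signal (x axis, log scale) for the 244 member values read on 8 arrays. Blue points have both channels well above background and red points 1. Points close on 0 at signals of 300 or more and spread up to 2.30 below 50. The offset of 50 in normexp shrinks ratios of dim signals, so a wider spread there follows from the method.

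Probes of 1 gene did not always go the same way. Of the members with a second probe, ITGA6 and LAMB2 had probes within 0.39 and 0.19 of each other on all 8 arrays and of one sign. For LAMA5 the probe used here had mock signals of 12506 to 19235 while the other, for the RefSeq transcript, had 149 to 449, and they had opposite signs on 5 of 8 arrays. The probes of LAMA4 had opposite signs on 4 of 8 arrays for the second brightest, and those of LAMA3 on 3 of the 6 arrays read. That second LAMA4 probe was past 1 with both channels well above background on the si-PIR-3 and miR-144-3p arrays. It read 1.44 (mock signal 31.1) with si-PIR-3 and -1.003 (mock signal 81.4) with miR-144-3p, where the brightest probe read 0.41 on each. A second ITGB2 probe was past 1 only with a dim channel. Probe positions on hg19 for the members the text turns on are chr17:73753824-73753883 for ITGB4, chr7:20455137-20455196 for ITGB8, chr12:54789656-54789715 for ITGA5, chr1:209788356-209788415 for LAMB3, chr18:21534735-21534794 for LAMA3 and chr7:107564411-107564470 for LAMB1. Exons and untranslated regions were not assigned.

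Lists of genes that act with these subunits were written from general knowledge. Of 22 integrin adaptors and kinases, 21 or 22 were read in each transfection. A gene counts as past 1 with si-PIR or miR-204-5p only where both arrays are, and by this rule 1 was past 1 (FERMT2, the kindlin of adherent cells, at 1.15 with miR-130-5p). The shares of all genes past 1 are those given above for each transfection. FERMT2 was also higher with both siRNAs (0.75 and 0.79) and in both lines given miR-204-5p (0.86 and 0.75), and lower with both miR-144 arms (-0.74 and -0.76). FERMT1, the epithelial kindlin, was at -1.96 with si-PIR-3 and -0.27 with si-PIR-2, and PARVA, an adaptor of the integrin-linked kinase, was at -1.03 with si-PIR-3 alone. Of 15 integrin ligands other than laminin and collagen, 7 to 12 were read, with 8 instances of 1 or higher and 2 of -1 or lower over the 6 transfections. In 4 of the 8 (VCAM1 with both miR-144 arms, VTN and SPP1) a channel was dim, and no size is read from them. CYR61 was at 1.96 and 1.08 with miR-144-5p and miR-144-3p and CTGF at 2.02 with miR-130-3p. CYR61 was also at 1.87 with si-PIR-2 but at 0.10 with si-PIR-3. With miR-204-5p CTGF was at 1.01 in SW1990 and 0.34 in MDA-MB-231. Of 11 partners of laminin in the basement membrane and hemidesmosome, 8 to 10 were read, with 1 instance higher (NID1, the linker nidogen, at 1.61 with miR-130-3p) and 3 lower (NTN4 with miR-144-5p and, with HSPG2, with miR-130-5p). NTN4, a laminin-related netrin, was at -1.37 and -0.98 with the miR-144 arms, and HSPG2, the proteoglycan perlecan, at -1.24 and -0.88 with the miR-130 arms. The medians of the lists lay between -0.28 and 0.65.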

How the data were processed

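RNA of 5 human cancer cell lines was hybridised to 8 two-colour Agilent 60K arrays. The authors scanned them with Agilent Feature Extraction 11.5.1.1 (protocol GE2_1105_Oct12), and the array annotation is on hg19. The deposited scanner outputs give spot intensity for both dyes and a log10 ratio of red over green after the software's background subtraction and dye normalization. The deposited value table holds the same log10 ratio. That ratio was turned to log2. Control spots and outlier spots were left out, repeat spots were averaged, and the brightest probe stood for a gene. A ratio was read where at least 1 channel was well above background. The mock level is log2 of the processed Cy3 intensity less the 75th percentile of the array. Over the 4 arrays of the 2 groups with 2 arrays, lmFit and eBayes of limma 3.58.1 in R 4.3.3 tested each group mean against 0, over all genes read, with Benjamini-Hochberg adjustment at 0.05, after a check on simulated data. The p-values measure only the spread between these arrays. Other transfections had 1 array and no test, and lines were not tested against each other. Members past a log2 ratio of 1 or with a mock range of 2 were named, except that 1 member and 1 marker are not reported here. Members and gene lists were chosen with earlier results of these data known. Alternatives were normexp background correction with loess or median centring, the value table, probe means, other filters and thresholds, and leaving out an array. Sequences came from RefSeq tables (GRCh38.p14). Precision is limited by the number of arrays.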

Additional observations from a re-analysis of the deposited data

Results flagged for a closer look

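Of the 28 members read in both lines given miR-204-5p, 13 had opposite signs in the 2 lines, with 1 array each. The share of all genes with opposite signs was not counted, so the 13 are not read as a trait of the members. In 2 of the 13 a value was also past 1 in a line, and the difference was not tested. ITGA2 was at 1.12 in SW1990 and -0.15 in MDA-MB-231. ITGAM was at -1.36 in SW1990 and 0.74 in MDA-MB-231, and each of these ITGAM values had 1 channel that was not well above background.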

How the results depend on the processing

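Of the counts of members and genes under the alternatives, 60 stayed within 1.5 times and 35 moved past it. With normexp (offset 50) and loess, members past 1 numbered 0 for si-PIR, 0 for miR-144-5p, 1 for miR-130-5p and 0 for miR-130-3p, against 1, 1, 5 and 4. With an offset of 1 and loess they were 2 for miR-130-5p and 0 for miR-130-3p, and limma called 2 genes for si-PIR and 11 for miR-204-5p, against 0. With an offset of 50 and median centring, which moved the median of all genes by 0.23 to 0.50, members numbered 3 for miR-144-5p, 1 for miR-204-5p, 1 for miR-130-5p and 8 for miR-130-3p, and 0 of these were among the members past 1 by the scanner ratio. The 1 member past 1 for si-PIR was then ITGB1 in place of ITGB4 (-0.56 and -0.28), and ITGB8 was at -0.66 and -0.76 with the miR-144 arms. Under that setting limma called 10053 genes for si-PIR (10019 higher, 34 lower) and 8544 for miR-204-5p (8476 higher, 68 lower), and 15 members were higher on all 8 arrays. With both channels well above background the members were 3 for miR-130-5p and 2 for miR-130-3p, and limma called 6 genes for miR-204-5p. Probe means gave 2 for miR-144-5p and no filter gave 2, and by probe means LAMB1 with miR-130-5p turned to 0.675. A fold of 1.5 gave 7 (miR-144-5p), 5 (miR-144-3p), 3 (miR-204-5p), 12 (miR-130-5p) and 9 (miR-130-3p), and a fold of 4 gave 0 for si-PIR, miR-144-5p, miR-144-3p and miR-130-5p and 1 for miR-130-3p. Leaving out an array gave 3 to 4 members for si-PIR and 2 to 5 for miR-204-5p, since 1 array then decides, and limma called 0 to 0 genes. The lone array was assumed to vary like the other group. The mock range of 2 or more held for 11 members with normexp on the mock signal and a range of 3 for 12. Causes were not tested. The slide and scan as a block were not run, since all arrays share them. Signals under 50 limit the ratios.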
